A study of Mus musculus with 4 samples.

Results

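Ms4a4c, Ms4a6b, Ms4a6c, Ms4a6d and Ms4a7 are 5 genes of the membrane-spanning 4A family, and their RNA was followed here across the leukocytes of the inflamed gut muscle layer. They were taken by symbol, as 5 of the 16308 genes counted in every cell, and had been chosen by their UMI levels in monocytes and macrophages (Mφ) of these same libraries. Their levels there are therefore a description and not a finding. The cells were leukocytes sorted for CD45 from the small intestinal muscularis of mice and sequenced one by one in droplets. The mice had undergone intestinal manipulation, a surgical handling of the gut that inflames its muscle layer. There was 1 library per group and 4 libraries in all, each made from several pooled mice. The animals were 12 weeks old. WT mice were C57BL/6J and were sampled 24 h and 72 h post-injury. CCR2 KO mice carried a targeted Ccr2 allele on both chromosomes (Ccr2-/-; B6.129S4-Ccr2tm1Ifc/J) and were sampled at the same times. The allele is constitutive, so every cell type of these mice lacked the receptor, and its strain name gives a 129 origin. All 4 groups had surgery.

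Proteins of this family cross the membrane several times and keep both ends inside the cell. The best known member is CD20, the B cell surface protein encoded by Ms4a1, and another, encoded by Ms4a2, is the beta chain of the high-affinity IgE receptor on mast cells and basophils. Several others are found on myeloid cells or T cells, where some of them sit beside signalling receptors. Some members act as odour receptors in a class of olfactory neurons. CCR2 is the chemokine receptor that draws Ly6c monocytes out of the bone marrow and into inflamed tissue, where they become Mφ.

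The 5 genes lie together on chromosome 19 of GRCm38, within 283.811 kb that hold 3 other Ms4a genes. In the GENCODE annotation Ms4a7 spans 11321039 to 11336146 on the minus strand (gene ENSMUSG00000024672), Ms4a4c 11404770 to 11427246 on the plus strand (ENSMUSG00000024675) and Ms4a6c 11469366 to 11482192 on the plus strand (ENSMUSG00000079419). Ms4a6b spans 11516512 to 11531256 on the plus strand (ENSMUSG00000024677) and Ms4a6d 11586604 to 11604849 on the minus strand (ENSMUSG00000024679). Some of these genes are close copies. The coding sequences of Ms4a6b and Ms4a6c were identical at 85.4% of aligned bases, and Ms4a4c was identical to its neighbour Ms4a4b at 91.7%. Ms4a4c and Ms4a7 were the less related members, with 57.9% to 60.1% and 57.9% to 64.0% identity to the other 4. Because the libraries read the 3′ end of each transcript, reads from close copies could be lost or shared. Some stretches of 50 bases in the last 500 bases of the transcripts also occurred in another gene. They were 11.1% of those of Ms4a4c, 13.7% of Ms4a6c, 2.29% of Ms4a6b and none of Ms4a6d and Ms4a7. For Ms4a6c the other genes were Ms4a6b, Prdm11, Gm44997 and 1700086O06Rik, so not all were close copies. Stretches were pooled over the coding transcripts of a gene, 1 for Ms4a6c and 3 for Ms4a6b, so the shares are not strictly comparable.

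The likeness extended into the promoters. The RefSeq table for GRCm38.p6 held a promoter for each of the members except Ms4a6d. The pairs of neighbouring copies are printed here because they are compared cell class by cell class further on. Capitals mark runs of at least 10 bases that are identical between the genes of a pair, and a sequence stops early where an annotated exon begins inside its RefSeq window. The windows of Ms4a4c and Ms4a6b start from a RefSeq transcript that begins inside the GENCODE gene span, so they are not the region before the outermost annotated start. All run on the plus strand, Ms4a4c at chr19:11407411-11407660, Ms4a4b at chr19:11443308-11443552, Ms4a6b at chr19:11518309-11518452 and Ms4a6c at chr19:11469118-11469365.
Ms4a4c promoter: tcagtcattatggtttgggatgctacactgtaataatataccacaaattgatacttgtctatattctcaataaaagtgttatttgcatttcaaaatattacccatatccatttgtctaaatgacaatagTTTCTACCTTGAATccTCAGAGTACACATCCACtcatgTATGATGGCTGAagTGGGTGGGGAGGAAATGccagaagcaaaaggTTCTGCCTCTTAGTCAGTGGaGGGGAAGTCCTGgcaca
Ms4a4b promoter: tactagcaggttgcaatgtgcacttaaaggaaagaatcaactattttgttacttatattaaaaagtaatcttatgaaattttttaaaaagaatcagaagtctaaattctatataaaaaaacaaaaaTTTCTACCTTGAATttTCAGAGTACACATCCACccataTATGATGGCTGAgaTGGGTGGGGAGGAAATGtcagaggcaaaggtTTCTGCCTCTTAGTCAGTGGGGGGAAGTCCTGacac
Ms4a6b promoter: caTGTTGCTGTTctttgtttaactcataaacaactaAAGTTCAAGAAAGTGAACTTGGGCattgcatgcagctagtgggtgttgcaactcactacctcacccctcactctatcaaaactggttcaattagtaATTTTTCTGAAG
Ms4a6c promoter: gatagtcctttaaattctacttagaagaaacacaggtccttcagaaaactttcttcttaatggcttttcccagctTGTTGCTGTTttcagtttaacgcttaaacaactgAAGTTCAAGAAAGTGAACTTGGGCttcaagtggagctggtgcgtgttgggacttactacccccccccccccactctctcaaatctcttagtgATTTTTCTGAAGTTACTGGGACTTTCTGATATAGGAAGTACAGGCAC
The RefSeq windows of Ms4a4c and Ms4a4b were identical at 78.4% of 232 aligned bases, with an unbroken run of 20, and those of Ms4a6b and Ms4a6c at 85.1% of 175 aligned bases, with an unbroken run of 48. The Ms4a6b window holds 106 bases of a GENCODE exon, which are not printed, so its longest run is not wholly shown. Every other pair among these genes and Ms4a7 had 54.0% to 61.3% identity. Motifs were searched as letters on both strands of the 250 bases before each start, and their share is given over the 32841 promoters of the table. The PU.1 core GAGGAA, which occurs in 23.3% of promoters, was found in Ms4a4c and Ms4a4b, 61 and 64 bases before the start and inside a shared run of capitals. The TATA motif TATAAA, which occurs in 12.4%, was found in Ms4a4b 140 bases before the start. The AP-1 motif TGACTCA (4.46% of promoters), the STAT motif TTCNNNGAA (7.02%), the C/EBP motif TTGCGCAA (0.164%) and the interferon regulatory factor motif (2.98%) were in none of the windows, and the windows of Ms4a6b, Ms4a6c and Ms4a7 held no match at all. A match of letters is not a binding site.

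The tables hold 5811 cells and 9736725 to 21206308 unique molecular identifiers (UMIs, counted RNA molecules) per library. Cells were placed in classes by lists of marker genes that hold no Ms4a gene, and all class names mean marker-based likeness. Monocyte/Mφ-like cells (marker genes such as Lyz2, Csf1r, Fcgr1, Adgre1, Cd68 and Msr1) numbered 1286 in WT 24 h, 215 in CCR2 KO 24 h, 891 in WT 72 h and 141 in CCR2 KO 72 h. They made up 76.8%, 12.1%, 67.8% and 13.5% of the cells, at a median depth of 14077 to 15849 UMIs. Ccr2 itself was at 758 and 1084 CPM in these cells of the WT libraries and at 95.02 and 85.1 CPM in those of the CCR2 KO libraries (CPM is UMIs per 1000000 UMIs of the class). Markers of other cells among the monocyte/Mφ-like cells summed to 650, 305, 273 and 344 CPM for 8 neutrophil genes and to 0.258, 1.66, 17.1 and 27.8 CPM for 5 T cell genes, in the same order. Their own 7 markers summed to 9916 to 20287 CPM. From here on, values of the 4 libraries stand in library order, which is WT 24 h first, CCR2 KO 24 h second, then WT 72 h, and last CCR2 KO 72 h. Summed over the 6 pairs of libraries, 4 cell barcodes were shared. With 1 library per group no test over animals was possible. Intervals in brackets are 95% intervals of counting error only, and every comparison is between 2 libraries. A UMI stands for 1 molecule whatever the length of its transcript. Levels may thus be compared between genes, apart from reads lost or shared where genes have the same 3′ sequence.

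Ms4a6c was the most abundant of the 5 in monocyte/Mφ-like cells of 3 libraries, and Ms4a6d in CCR2 KO 24 h. Ms4a6c was at 1085 CPM (1071 to 1100) in WT 24 h, 604 (579 to 630) in CCR2 KO 24 h, 703 (689 to 718) in WT 72 h and 669 (635 to 705) in CCR2 KO 72 h. WT 24 h stood above the other 3 libraries, which lay close together. It was among the more abundant transcripts of these cells, with 157 to 252 of the 16308 genes above it. Ms4a6d was at 744 CPM (732 to 756), 699 (672 to 727), 340 (330 to 350) and 372 (346 to 398) in the same order. Both 24 h libraries were high in Ms4a6d and both 72 h libraries low, whatever the genotype.

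Ms4a6b had the narrowest range of the 5. Its level was 418 CPM (409 to 427) in WT 24 h, 255 (239 to 272) in CCR2 KO 24 h, 330 (320 to 340) in WT 72 h and 314 (290 to 338) in CCR2 KO 72 h. Ms4a4c was at 509 CPM (499 to 519), 261 (245 to 278), 175 (168 to 183) and 137 (122 to 154) in that order. Ms4a4c was thus higher at 24 h than at 72 h and higher in WT than in CCR2 KO at both times, except that the order at 72 h was reversed among cells with at most 5% mitochondrial UMIs (log2 ratio 0.33). Ms4a7 had another order, with 177 CPM (171 to 183) in WT 24 h, 180 (166 to 194) in CCR2 KO 24 h, 646 (633 to 660) in WT 72 h and 206 (187 to 226) in CCR2 KO 72 h. For Ms4a7 a single library, WT 72 h, stood apart from 3 that were low.

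As a share of the UMIs of all 5 genes, the make-up of the family in monocyte/Mφ-like cells differed between libraries. Ms4a7 gave 6.03% in WT 24 h, 8.98% in CCR2 KO 24 h, 29.5% in WT 72 h and 12.1% in CCR2 KO 72 h. Ms4a4c gave 17.4%, 13.1%, 7.99% and 8.09%. Ms4a7 and Ms4a4c thus traded places between the WT libraries, from 0.35 Ms4a7 UMIs per Ms4a4c UMI at 24 h to 3.69 at 72 h, and stood at 0.69 and 1.5 in the CCR2 KO libraries. The summed level of the 5 genes was 2933, 1999, 2195 and 1698 CPM.

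The comparison of CCR2 KO with WT asks which part of the infiltrate depends on CCR2. At 24 h 3 of the 5 genes were lower in CCR2 KO monocyte/Mφ-like cells, and the other two were nearly level. On the log2 scale the ratio of CCR2 KO to WT was -0.96 (-1.06 to -0.87) for Ms4a4c, -0.85 (-0.91 to -0.78) for Ms4a6c and -0.71 (-0.81 to -0.61) for Ms4a6b. It was -0.09 (-0.15 to -0.03) for Ms4a6d and 0.02 (-0.10 to 0.14) for Ms4a7. None of the 5 passed a 2-fold difference, which 1.26% of 5864 genes did in the direction of lower in CCR2 KO and 2.76% in the other (genes of at least 20 CPM in either library). The median of the 5 was -0.71, beside -0.07 over all those genes, and Ms4a4c, Ms4a6c and Ms4a6b lay at the 1.45, 2.1 and 3.5 percentiles of them. Because the members were chosen by their levels in these same libraries, such places among all genes, here and below, are descriptions only.

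At 72 h Ms4a7 was low in CCR2 KO and the other 4 were nearer to even. The log2 ratio of Ms4a7 was -1.65 (-1.79 to -1.51), past 2-fold, as were 2.38% of 6419 genes in that direction. It was 1 of the 5, at the 0.561 percentile of those genes. Ms4a4c stood at -0.35 (-0.53 to -0.18), Ms4a6b at -0.07 (-0.19 to 0.05), Ms4a6c at -0.07 (-0.15 to 0.01) and Ms4a6d at 0.13 (0.02 to 0.24). For Ms4a6b and Ms4a6c the counting intervals covered 0. With other processing Ms4a6b ranged from -0.46 to -0.053 and Ms4a6c from -0.34 to 0.092. The sign of Ms4a6d depended on the processing, being -0.046 with TMM factors, -0.22 with every cell weighted equally and -0.36 with cells thinned to 1000 UMIs. No member was higher by 2-fold, against 5.16% of the genes. The plot of ratios sets the comparisons side by side.

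**Figure D1:**
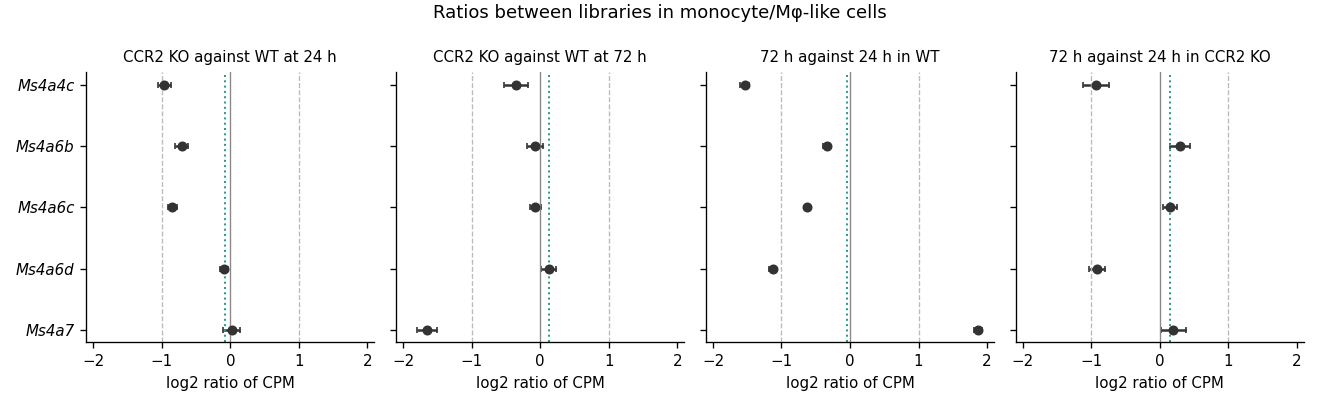
Log2 ratio of CPM between libraries in monocyte/Mφ-like cells for the 5 Ms4a genes, with 95% counting intervals (bars). Dashed lines mark 2-fold and the dotted line the median of all genes of at least 20 CPM. Ms4a7 stands at 1.87 between the times in WT and at -1.65 between genotypes at 72 h, and Ms4a4c and Ms4a6d lie left of 0 in both comparisons over time.

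Between 24 h and 72 h in WT, Ms4a4c and Ms4a6d were lower and Ms4a7 was higher at the later time, each past 2-fold. The log2 ratio of 72 h to 24 h was -1.54 (-1.60 to -1.47) for Ms4a4c, -1.13 (-1.18 to -1.08) for Ms4a6d and 1.87 (1.81 to 1.93) for Ms4a7. Ms4a6c stood at -0.63 (-0.66 to -0.59) and Ms4a6b at -0.34 (-0.39 to -0.29). In the background 6.06% of 6202 genes were lower by 2-fold and 6.88% higher, with a median of -0.04. In CCR2 KO none of the 5 passed 2-fold, while 4.49% of 6441 genes were lower and 10.1% higher. There Ms4a4c stood at -0.93 (-1.12 to -0.74) and Ms4a6d at -0.91 (-1.03 to -0.80). These 2 genes would have passed with TMM factors or with every cell weighted equally, whereas Ms4a4c stood at -0.13 among cells with at most 5% mitochondrial UMIs. Ms4a6b stood at 0.30 (0.15 to 0.44), Ms4a7 at 0.20 (0.02 to 0.38) and Ms4a6c at 0.15 (0.05 to 0.24), beside 0.14 for the median of all genes. The sign of Ms4a7 and Ms4a6c there depended on the processing. Ms4a7 became -0.042 with TMM factors, -0.045 with equal weights and -0.64 among cells with at most 5% mitochondrial UMIs, and Ms4a6c became -0.092 with TMM factors and -0.10 with equal weights. Ms4a6b became -0.042 with cells thinned to 1000 UMIs. The comparisons share libraries and are not independent of each other.

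The monocyte/Mφ-like cells were then divided by genes that the study names for several of its subsets, plus interferon genes. No list was used for the study's Ccr2+ intermediate Mφ or Fn1+ cells, so any such cells stand under other names or none. Ly6c monocytes (Ly6c2, Plac8, Hp, Chil3) are the newly arrived cells, and the Arg1, Fabp5, Cd206, Timp2 and Cx3cr1 subsets are Mφ states named after a leading gene. The proportions of these subsets differed between libraries. Cd206 cells (Mrc1, Selenop, Igf1, Trem2, Stab1) made up 4.12% of WT 24 h, 3.72% of CCR2 KO 24 h, 52.9% of WT 72 h and 34.8% of CCR2 KO 72 h monocyte/Mφ-like cells, and Ly6c monocytes 24.8%, 11.6%, 4.38% and 9.22%. These subsets were rebuilt here from marker genes and need not be the clusters of the study. Their boundaries are soft, since 784 of the 2510 cells with a subset had a second subset within 0.1 of the leading score. The study reports its Cd206 and Timp2 subsets as absent from CCR2 KO mice in the resolution phase. Here the marker lists placed 49 and 8 cells of CCR2 KO 72 h under those names, and 16 and 2 of these had such a close second subset. In WT, Ccr2 was at 981 and 1210 CPM in Cx3cr1 cells at 24 h and 72 h, beside 1256 and 1891 CPM in Ly6c monocytes.

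The 4 genes other than Ms4a7 were high in Ly6c monocytes and in the few interferon cells of WT (Rsad2, Ifit1, Ifit2, Ifit3, Cxcl10, Isg15, Oasl1), and low in Timp2 cells. In Ly6c monocytes Ms4a4c was at 828 CPM in WT 24 h (319 cells), 858 in CCR2 KO 24 h (25 cells), 640 in WT 72 h (39 cells) and 742 in CCR2 KO 72 h (13 cells). These 4 values spanned 640 to 858 CPM, where the level over all monocyte/Mφ-like cells spanned 137 to 509 CPM. The highest level of Ms4a4c was in interferon cells of WT, with 1171 CPM (1078 to 1270) in 36 cells of WT 24 h and 1038 CPM (870 to 1230) in 7 cells of WT 72 h. CCR2 KO held 3 such cells at 24 h and none at 72 h. Those 3 cells were at 314 CPM (179 to 509) from 16 UMIs, below the Ly6c monocytes of their library. In Cd206 cells Ms4a4c was at 445 CPM in WT 24 h and 150 in WT 72 h but at 27.8 and 27.7 in CCR2 KO, the last 2 values resting on 3 and 24 UMIs.

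Ms4a6c was at 1514, 1259, 1251 and 1221 CPM in Ly6c monocytes in library order, the highest of the 5 except in CCR2 KO 24 h. The Cd206 cells held 1334, 602, 761 and 587 CPM and the Timp2 cells (Timp2, Ltc4s, Adgre5) 343 CPM in WT 72 h (100 cells) and 351 in CCR2 KO 72 h (8 cells). Ms4a6b followed it at a lower level, with 594, 532, 649 and 479 CPM in Ly6c monocytes, 537, 315, 385 and 310 in Cd206 cells and 148 and 134 in Timp2 cells at 72 h. In both genes the Timp2 cells were the lowest of the subsets with at least 5 cells at 72 h.

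Ms4a6d was highest in the Ly6c monocytes of CCR2 KO 24 h, at 1304 CPM (1195 to 1419), beside 889 in WT 24 h, 624 in WT 72 h and 755 in CCR2 KO 72 h. In Arg1 cells (Arg1, Ccl9, Srgn) it was at 699, 753, 236 and 488 CPM, so that WT 72 h was the low library. Its lower level at 72 h was seen in most subsets. In WT 6 of 7 subsets had a 72 h to 24 h ratio with an interval below 0, and the seventh, Timp2 (5 cells at 24 h), covered 0. In CCR2 KO all 5 subsets with a ratio lay below 0, from -1.26 to -0.63 on the log2 scale.

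Ms4a7 was ordered otherwise among the subsets, without a full reversal. It was low in Ly6c monocytes, at 63.2, 12.3, 36.4 and 8.63 CPM in library order, and in Arg1 cells, at 86.2, 64.3, 32.3 and 26.5 CPM. It was high in Cd206 cells, at 545 (489 to 606), 648 (505 to 819), 955 (932.5 to 979) and 245 (213 to 280) CPM, and in Cx3cr1 cells (Cx3cr1, Cd81, Cd72), at 641 (547 to 746), 603 (542 to 668), 800 (758 to 844) and 358 (311 to 410) CPM. In both of these subsets WT 72 h was the highest library and CCR2 KO 72 h the lowest. Within WT 72 h the level in Cd206 cells was 26.3-fold that in Ly6c monocytes (log2 4.72, 4.09 to 5.43). Interferon cells held Ms4a7 at 348 CPM in WT 24 h and 589 in WT 72 h, and Timp2 cells at 125 CPM in WT 72 h. Fabp5 cells held it at 294 CPM in WT 24 h and 91.3 in CCR2 KO 24 h.

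**Figure D2:**
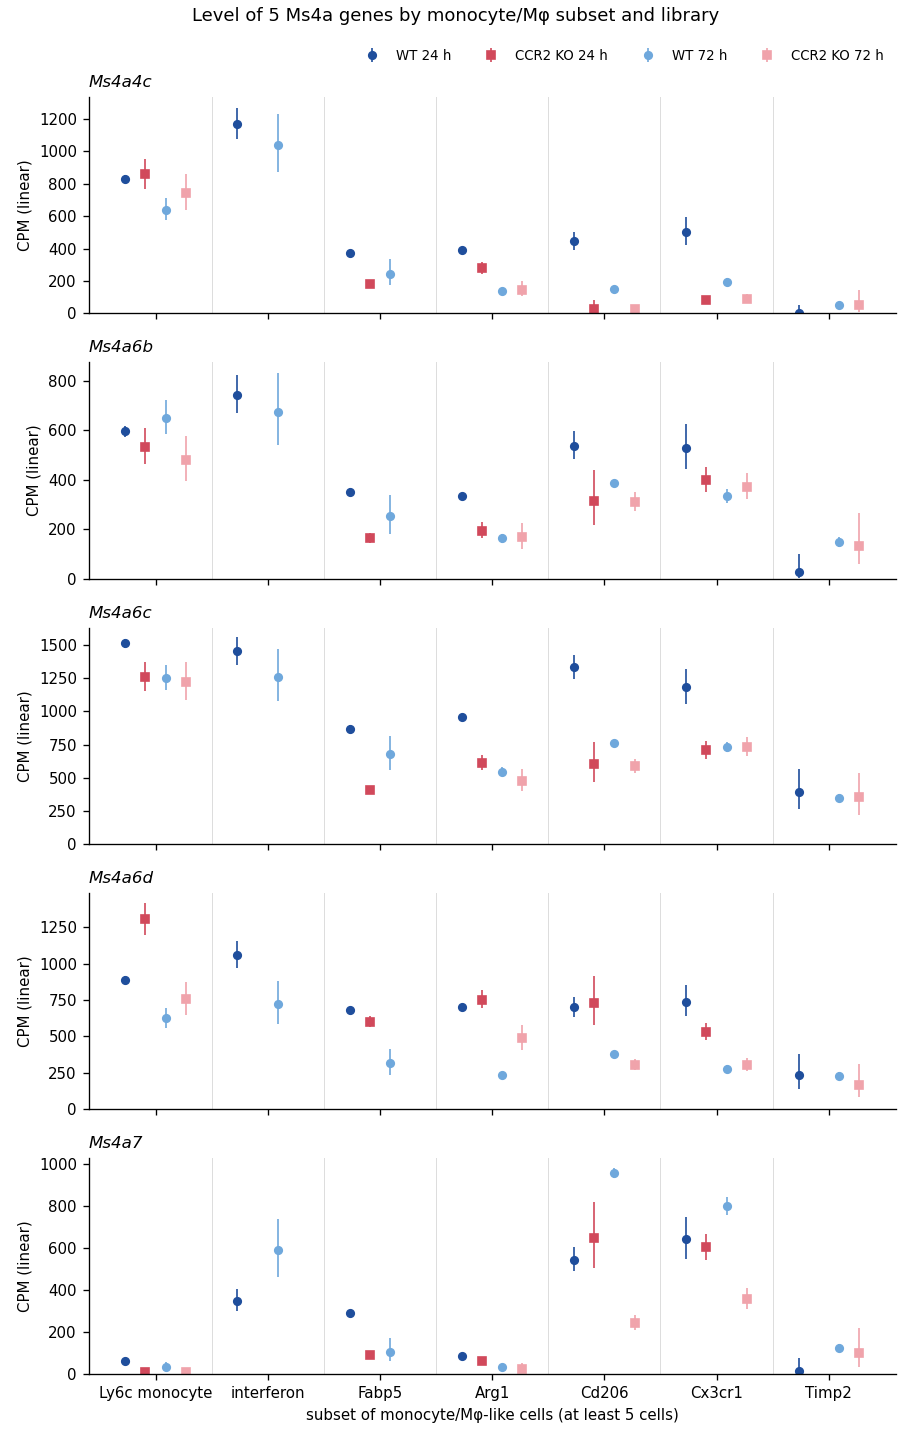
Level (CPM, linear axis from 0) of each Ms4a gene in subsets of monocyte/Mφ-like cells with at least 5 cells, 1 point per library with 95% Poisson intervals. Ms4a4c, Ms4a6b, Ms4a6c and Ms4a6d are high in Ly6c monocytes and interferon cells, and Ms4a7 is high in Cd206 and Cx3cr1 cells, where CCR2 KO 72 h lies at 245 and 358 CPM.

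Levels within a subset also differed between genotypes. At 24 h Ms4a6c was lower in CCR2 KO in all 6 subsets with a ratio, from -1.57 in the 3 interferon cells to -0.27 in Ly6c monocytes. Ms4a4c was lower in 4 of 5 subsets, with the lowest value, -2.62 (-3.13 to -2.14), in Cx3cr1 cells. The exception was Ly6c monocytes, at 0.05 (-0.11 to 0.21). At 72 h Ms4a7 was lower in Cd206 cells of CCR2 KO by a log2 ratio of -1.97 (-2.17 to -1.77) and in Cx3cr1 cells by -1.16 (-1.38 to -0.95), and Ms4a4c by -2.44 (-3.09 to -1.86) and -1.13 (-1.58 to -0.71) in the same subsets. Ms4a6d went against these in Arg1 cells, with 1.05 (0.76 to 1.33). That value set 28 cells of CCR2 KO 72 h, at a median of 6433.5 UMIs, against 135 cells of WT 72 h at 15250. Over time in WT, Ms4a7 was lower at 72 h in 3 of 6 subsets with a ratio (Fabp5 at -1.45, Arg1 at -1.42 and Ly6c monocytes at -0.80) and higher in the other 3 (Cd206, interferon and Cx3cr1). It was higher at 72 h in Cd206 cells of WT (0.81, 0.65 to 0.97) and lower in those of CCR2 KO (-1.41, -1.80 to -0.99), although only 8 cells stood for CCR2 KO 24 h. Whether the cells under one subset name were alike in both genotypes was not tested, nor was the part of the soft borders.

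Cell by cell, most monocyte/Mφ-like cells held some of the family. With each cell thinned to 1000 UMIs, 13.7% of cells in WT 24 h, 30.7% in CCR2 KO 24 h, 23.3% in WT 72 h and 32.1% in CCR2 KO 72 h held none of the 5, and 31.1%, 18.9%, 20.4% and 11.2% held at least 3. A Ms4a7 UMI was found in 13.9%, 11.3%, 38.0% and 17.9% of the thinned cells (50.5%, 48.8%, 69.7% and 51.8% at full depth). In T, NK and innate lymphoid cells, which should lack Ms4a7, the thinned shares were 0%, 0.909%, 0% and 0%, at median depths of 4824 to 7313 UMIs. A Ms4a6c UMI was found in 59.9%, 40.1%, 43.4% and 44.8% of the thinned monocyte/Mφ-like cells, against 0.909% to 5% in T, NK and innate lymphoid cells (96.3%, 83.3%, 93.2% and 81.6% at full depth). Thinning left out 9, 3, 7 and 7 cells with fewer than 1000 UMIs.

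For Ms4a4c the thinned shares were 32.3%, 17.9%, 14.1% and 10.4%, and 83.0%, 62.8%, 61.5% and 41.8% at full depth. Neutrophil-like cells, at median depths of 2092 to 3548 UMIs, held a Ms4a4c UMI in 0% to 1.45% of thinned cells. Ms4a6b was found in 31.6%, 21.7%, 26.8% and 21.6% of the thinned monocyte/Mφ-like cells, against at most 0.625% of neutrophil-like cells, and Ms4a6d in 47.8%, 40.6%, 27.9% and 23.1%, against at most 1.27% of T, NK and innate lymphoid cells. At full depth the shares were 88.6%, 70.7%, 81.1% and 69.5% for Ms4a6b and 95.02%, 89.8%, 86.1% and 73.8% for Ms4a6d. Ms4a4c was the most unevenly spread in CCR2 KO 72 h, where the 10% of cells with the most UMIs of it held 76.4% of its UMIs. Their share was 34.9% in WT 24 h. For Ms4a6c the same share was 23.4% to 37.0% over the 4 libraries.

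Ms4a6b and Ms4a6c went together most closely. Over monocyte/Mφ-like cells with at least 5000 UMIs (1191, 182, 806 and 111 cells), Pearson's r between their levels was 0.66, 0.76, 0.64 and 0.62 in library order. Between Ms4a4c and Ms4a6c it was 0.62, 0.65, 0.50 and 0.43, and between Ms4a4c and Ms4a7 0.04, -0.25, -0.04 and -0.18. The cells of a library share its depth and its mixture of subsets, so these are descriptions. A thinned cell with a Ms4a7 UMI also held one of Ms4a4c in 26.0%, 25%, 13.1% and 16.7% of cases, and a cell without Ms4a7 in 33.3%, 17.0%, 14.8% and 9.09%. Few thinned cells held both, namely 46 of 1277, 6 of 212, 44 of 884 and 4 of 134.

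Beyond monocytes and Mφ the 5 genes spread differently over the leukocytes, so the label of a myeloid family held for some of them only. Ms4a7 was nearly confined to monocyte/Mφ-like cells, which held 99.9%, 98.9%, 95.8% and 98.0% of its UMIs in library order. For Ms4a6c the figures were 97.4%, 79.3%, 88.7% and 51.1%, and in CCR2 KO 72 h dendritic cells held 45.1%. In that library dendritic cells held 57.5% of the Ms4a4c UMIs and monocyte/Mφ-like cells 33.7%. These shares follow cell numbers as well as levels, which cannot be told apart in a share.

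Type 2 dendritic cell-like cells (Cd209a, Flt3, Zbtb46, Kmo, H2-DMb2), the antigen-presenting cells closest to monocytes, carried 4 of the 5. Ms4a4c was at 642, 335, 228 and 224 CPM there, above the whole class of monocyte/Mφ-like cells in each library. The log2 ratio to that class was 0.34 (0.18 to 0.49), 0.36 (0.18 to 0.54), 0.38 (0.21 to 0.54) and 0.71 (0.49 to 0.93). Ly6c monocytes, a subset of that class, stood above type 2 dendritic cell-like cells in each library, at 828, 858, 640 and 742 CPM. In type 2 dendritic cell-like cells the log2 ratio of CCR2 KO to WT for Ms4a4c was -0.94 (-1.16 to -0.72) at 24 h. That of 72 h to 24 h in WT was -1.49 (-1.71 to -1.28). Ms4a6c was at 717, 484, 529 and 594 CPM in these cells, and Ms4a6d at 376, 312, 179 and 158. Ms4a6b was at 235, 191, 111 and 99.6 CPM. These last 3 genes lay below the level of monocyte/Mφ-like cells in all 4 libraries.

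Ms4a7 was at 0, 3.03, 89.1 and 0.535 CPM in type 2 dendritic cell-like cells. The value of WT 72 h came from 10 of 89 cells with 143 UMIs, up to 42 in 1 cell, and after thinning 3.37% of the 89 cells held a Ms4a7 UMI. Those 10 cells had a median of 31703 UMIs and held the monocyte/Mφ markers at 9069 CPM, where the other cells had a median of 15932 UMIs and held them at 683 CPM. In the same library the type 1 dendritic cell-like cells with Ms4a7 (6 of 24) also held these markers, at 6725 CPM against 545 in those without. Whether such droplets held more than 1 cell was not tested.

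Ms4a6b was also a gene of T cells. In T cell-like cells (Cd3e, Cd3d, Cd3g, Trac, Trbc2) it was at 301 CPM in WT 24 h (12 cells), 516 in CCR2 KO 24 h (53 cells), 570 in WT 72 h (41 cells) and 505 in CCR2 KO 72 h (84 cells). The ratio to monocyte/Mφ-like cells of the same library covered 0 in WT 24 h, at -0.47 (-1.13 to 0.11), and lay above it in the other 3, at 1.02 (0.81 to 1.22), 0.79 (0.55 to 1.02) and 0.69 (0.50 to 0.87). Innate lymphoid cell-like cells held 45.1, 232, 153 and 238 CPM and NK cell-like cells 32.8, 74.7, 113 and 237 CPM. Lymphoid cells (T, NK and innate lymphoid) held 36.3% of the Ms4a6b UMIs of CCR2 KO 72 h and 0.30% of those of WT 24 h. Across the 9 classes of the plot by leukocyte class, T cell-like cells had the highest mean level of Ms4a6b (473 CPM), then monocyte/Mφ-like cells (329), innate lymphoid cells (167) and type 2 dendritic cells (159), and the ranges over libraries overlap for neighbours in this order except for monocyte/Mφ-like and innate lymphoid cells.

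Ms4a4c was found in B cell-like cells (marker genes such as Cd79a, Cd79b, Ly6d, Fcmr and Pax5) as well, at 183, 228, 139 and 199 CPM from 6, 34, 9 and 20 UMIs. By the mean of the libraries it was ordered type 2 dendritic cells (357 CPM), mature dendritic cells (273), monocyte/Mφ-like cells (271) and B cells (187). The ranges of these 4 classes overlap. This order counts monocytes and Mφ as a single class, and Ly6c monocytes alone held Ms4a4c at 640 to 858 CPM. For Ms4a6c the order was monocyte/Mφ-like cells (765), type 2 (581) and type 1 dendritic cells (212), and for Ms4a7 monocyte/Mφ-like cells (302) were followed by type 2 dendritic cells (23.2). These orders leave out the smaller classes, among them plasma cell-like and non-leukocyte-like cells, whose Ms4a7 was at 0 CPM in 3 libraries but at 550 CPM (8 cells) and 808 CPM (3 cells) in WT 72 h. The first 2 classes overlap in Ms4a6c and do not in Ms4a7.

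**Figure D3:**
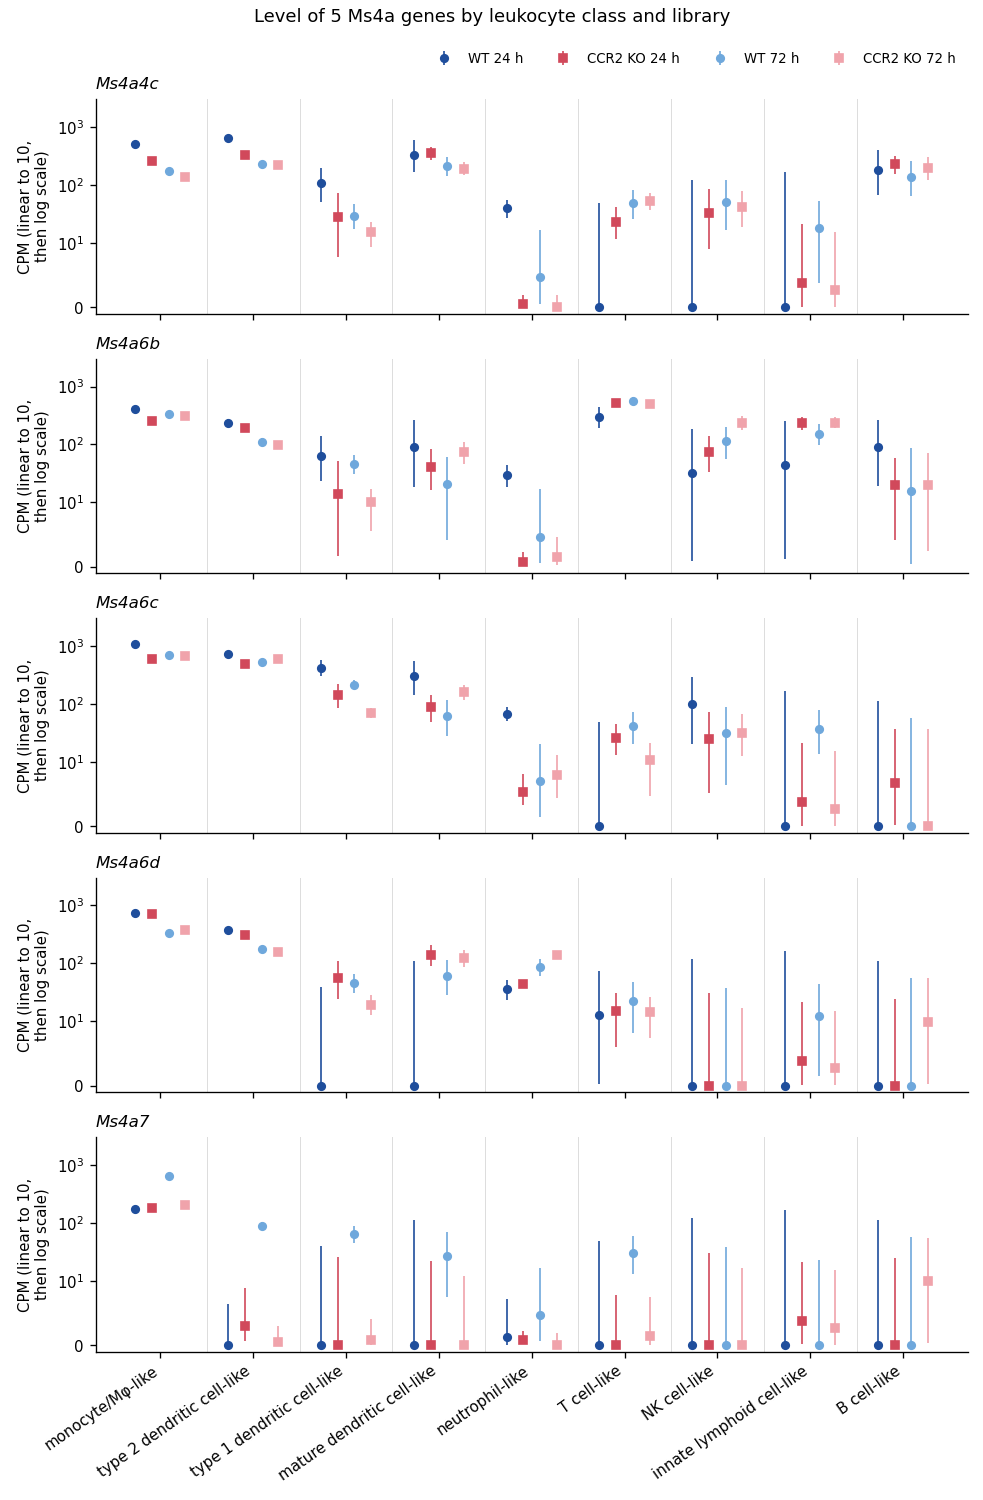
Level (CPM, axis linear up to 10 and logarithmic above) of each Ms4a gene by leukocyte class, 1 point per library with 95% Poisson intervals. Ms4a7 stands at 177 to 646 CPM in monocyte/Mφ-like cells and below 100 CPM in every other class drawn, whereas Ms4a6b stands at 301 to 570 CPM in T cell-like cells and at 255 to 418 CPM in monocyte/Mφ-like cells.

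In neutrophil-like cells (S100a8, S100a9, Csf3r, Cxcr2, Mmp9, Retnlg, G0s2, Hcar2) Ms4a6d was at 35.6 CPM in WT 24 h, 45.0 in CCR2 KO 24 h, 86.5 in WT 72 h and 141 in CCR2 KO 72 h, higher at 72 h in both genotypes. The other 4 stood below 10 CPM in neutrophil-like cells of every library except WT 24 h, where Ms4a6c was at 67.4, Ms4a4c at 39.5 and Ms4a6b at 29.3 CPM. These 3 values rest on 53, 31 and 23 UMIs. Neutrophil-like cells were also divided by whether they held a UMI of Siglecf, a receptor of eosinophils that some tissue neutrophils also carry. In its time series with naive mice the study names a cluster with Siglec-f, Cxcr4 and Pim1 eosinophils. By the marker lists used here only 2 cells of the 4 libraries were eosinophil-like. Whether the cells with Siglecf match the study's eosinophils was not tested. Ms4a6d was at 112, 50.9, 147 and 260 CPM in cells with Siglecf and at 30.04, 43.9, 46.6 and 48.1 CPM in cells without it. Cells with Siglecf stood higher in each library, although the interval covered 0 in CCR2 KO 24 h. The log2 ratio was 1.90 (0.31 to 3.25), 0.21 (-0.41 to 0.79), 1.66 (0.61 to 2.79) and 2.44 (1.99 to 2.91), from 23, 180, 66 and 222 cells with Siglecf. Median depths were 2110, 2965, 2617 and 3393 UMIs with Siglecf and 2085, 2986, 2507 and 4041 without.

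**Figure D4:**
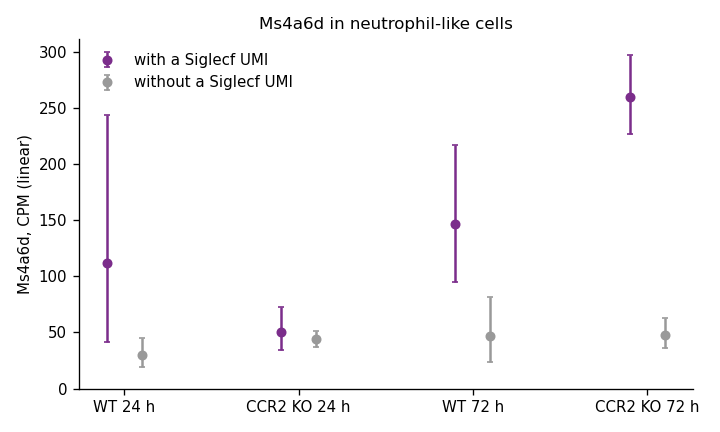
Ms4a6d level (CPM, linear axis from 0) in neutrophil-like cells with and without a Siglecf UMI in the 4 libraries, with 95% Poisson intervals. Cells without Siglecf stay between 30.04 and 48.1 CPM, and cells with it reach 260 CPM in CCR2 KO 72 h.

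The closely related neighbours were set against each other class by class. Ms4a4b, a T cell member of the family, was at 1030 CPM over all T cell-like cells and 1893 over NK cell-like cells, where Ms4a4c had 63 UMIs to 1609 of Ms4a4b and 18 to 884. In monocyte/Mφ-like cells the order was the reverse, with 20.2, 29.5, 12.4 and 6.35 Ms4a4c UMIs per Ms4a4b UMI in library order. Ms4a6b and Ms4a6c parted in the same way. T cell-like cells held 796 UMIs of Ms4a6b to 31 of Ms4a6c, and monocyte/Mφ-like cells 0.38, 0.42, 0.47 and 0.47 UMIs of Ms4a6b per UMI of Ms4a6c. Each pair of copies, whose sequences are printed above, thus had opposite orders in T cell-like and monocyte/Mφ-like cells. How many UMIs were assigned to the wrong copy was not tested.

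**Figure D5:**
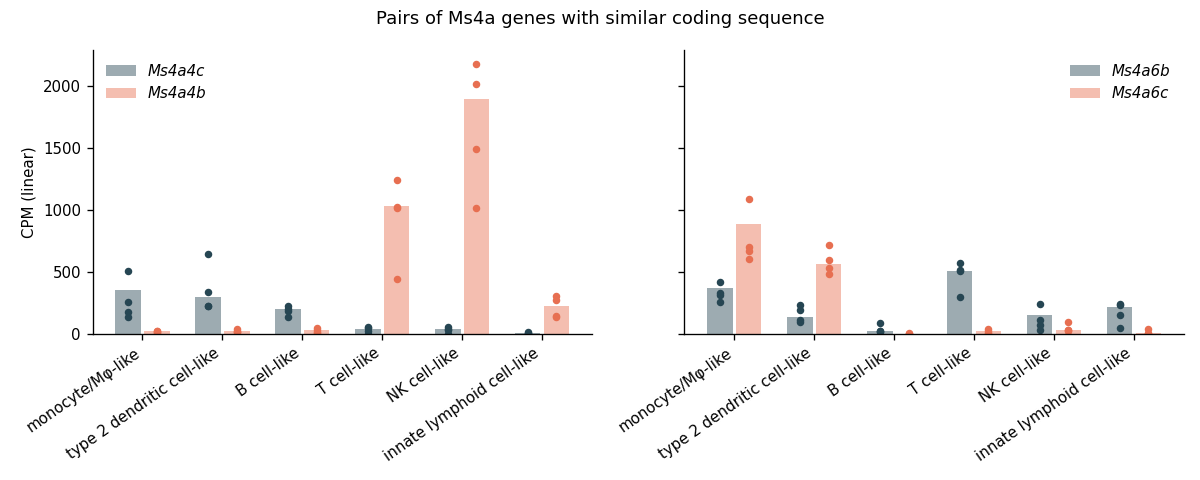
Level (CPM, linear axis from 0) of the pairs Ms4a4c and Ms4a4b (left) and Ms4a6b and Ms4a6c (right) in 6 leukocyte classes. Bars are all cells of a class pooled and points are the libraries. Ms4a4b reaches 1893 CPM in NK cell-like cells and 19.7 CPM in monocyte/Mφ-like cells, and Ms4a6b is high in T cell-like cells where Ms4a6c is near 0.

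Of 16 other genes on a list of the Ms4a family and the related Tmem176 pair, 10 were in the tables. Ms4a1 was at 1140 CPM over B cell-like cells and Ms4a2 at 830 CPM over the 5 mast cell- or basophil-like cells, and these genes had 5 and 0 UMIs in the 2533 monocyte/Mφ-like cells. The 19 plasma cell-like cells held Ms4a1 too (363 UMIs, 716 CPM), although plasma cells usually lose CD20. Ms4a8a, at 130, 71.3, 72.6 and 30.6 CPM in monocyte/Mφ-like cells, was low in CCR2 KO at both times, with log2 ratios of -0.87 (-1.06 to -0.68) and -1.25 (-1.63 to -0.88). Its highest level by subset was in Timp2 cells (260 CPM over all libraries), where the 4 members other than Ms4a7 were low. Timp2 cells of WT 24 h and WT 72 h gave 50 and 346 UMIs of Ms4a8a. The 1 and 8 such cells of CCR2 KO 24 h and 72 h gave 0. Ms4a4a (23.8, 11.05, 8.24 and 6.59 CPM) was, like Ms4a4c, highest in WT 24 h and lowest in CCR2 KO 72 h, and Ms4a14 (5.05, 5.52, 16.6 and 8.94 CPM) was highest in WT 72 h. Ms4a4d reached 29.0 CPM (7.89 to 74.1) in 10 cells of CCR2 KO 72 h that were not leukocyte-like, from 4 UMIs only. Ms4a3 stayed under 20 CPM in every class.

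Tmem176a and Tmem176b, ion channel genes distantly related to the family, were highest in innate lymphoid cell-like cells (1180 and 1316 CPM). In monocyte/Mφ-like cells they were, like Ms4a7, highest in WT 72 h, at 146, 198, 574 and 177 CPM for Tmem176a and 208, 270, 838 and 271 CPM for Tmem176b. Their log2 ratios of CCR2 KO to WT at 72 h were -1.70 (-1.85 to -1.55) and -1.63 (-1.75 to -1.51), beside -1.65 for Ms4a7.

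Proteins reported to bind Ms4a proteins or to signal beside them were read from a list of 7 genes in the tables. The adaptor chains Fcer1g, of Fc receptors, and Tyrobp, of Trem2 and related receptors, were abundant in monocyte/Mφ-like cells of all 4 libraries, at 2420 to 3161 and 1547 to 2206 CPM, and their lowest log2 ratio of CCR2 KO to WT was -0.43 (-0.48 to -0.38), of Tyrobp at 72 h. Trem2, a lipid-sensing Mφ receptor, was at 151, 119, 489 and 172 CPM, with a CCR2 KO to WT ratio of -1.51 (-1.66 to -1.35) at 72 h. It is one of the genes that define the Cd206 subset. The kinase Syk was at 95.8 to 178 CPM and Gsk3b at 95.3 to 110 CPM. Vsig4, a complement receptor of resident Mφ, and Tnfrsf18, the T cell receptor GITR, stayed below 10 CPM in these cells. Of the 7, Trem2 alone passed 2-fold in a comparison with both levels over 20 CPM, in 2 of the 4 (lower in CCR2 KO at 72 h, and higher at 72 h in WT by 1.69, 1.63 to 1.75).

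Genes whose level followed each member were sought over 12 points, the class and library combinations with at least 50 cells (monocyte/Mφ-, neutrophil-, type 2 dendritic cell- and T cell-like cells), among 3070 genes that reach 100 CPM and are no marker. Points of a library share its depth and its surgery. Ms4a7 was closest to Ccl8, C1qc and C1qa (Pearson's r of 0.99, 0.98 and 0.98), a chemokine and complement genes of tissue Mφ. Ms4a6c was closest to Tifab, Ly86 and Pld4 (0.98 each), Ms4a6b to Evl, Lpxn and Selenow (0.98 each), of which Evl and Lpxn encode regulators of the cytoskeleton and of adhesion. Ms4a4c was closest to Mcub, Emp1 and Jarid2 (0.96, 0.96 and 0.95), and Ms4a6d to Mt1, a metallothionein, Lrp1, a scavenger receptor, and Snx3 (0.96, 0.95 and 0.95). For comparison, 25 to 102 of the 3070 genes exceeded 0.9 for each member. The points span several classes, so these values need not hold within monocyte/Mφ-like cells. Over 15 subset and library points of those cells, none of the genes named here was among the 3 closest to its member. There 0 to 4 of 2590 genes exceeded 0.9.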

How the data were processed

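The authors sorted CD45+ cells, prepared libraries with the 10x Genomics 3′ v3 kit, aligned reads to GRCm38/mm10 and counted UMIs with Cell Ranger 3.0.2, and filtered cells in Seurat at a minimum of 200 genes and a maximum of 10% mitochondrial UMIs. The deposited values are raw counts of UMIs per gene and cell, without normalization, in 4 tables with 0 columns of other samples. Whether doublets were removed is not given in the sources used here, and no cell was removed here. Depth is 9736725 to 21206308 UMIs per library. Groups came from the labels, and because nothing else replicates a group there was no test and no p-value.

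Cells were scored as the mean log of 1 plus UMIs per 10000 over a marker list, divided by the score of the cell ranked 20. The class with the highest score was taken, if it reached 0.3 with at least 2 markers detected. Subsets were scored likewise. Some genes of the marker lists are not reported here by name. These thresholds were chosen after seeing the data, and the members, gene lists and comparisons were chosen with earlier results of these data known. Gate and graph clusters (scanpy 1.11.5, leidenalg 0.10.2) gave 2438 monocyte/Mφ-like cells in common. UMIs of a class were summed and divided by its total (CPM), with exact Poisson intervals. Ratios have exact binomial (Clopper-Pearson) intervals and are given where both libraries held more than 3 UMIs of the gene. Shares were taken after thinning to 1000 UMIs with a fixed seed. Intervals cover counting error only. Ratios were first run on simulated Poisson counts with known fold changes. Those counts hold no spread between cells or libraries, so the run checks the computation only. Genes named besides the members are other family genes of at least 20 CPM in some class, the partner list, Ccr2 and, for each member, the 3 genes of highest Pearson's r of log2(CPM + 10), over each class and library combination of at least 50 cells. Clec7a of the partner list was not analysed here. TMM factors came from edgeR 4.0.16. Gene positions and transcripts are from GENCODE M21 and promoters from the RefSeq table of GRCm38.p6. Alternatives were graph clusters, a stricter gate, at most 5% mitochondrial UMIs, equal weight of cells, removal of the top 5% of cells by UMIs, thinning to 1000 or 2000 UMIs, TMM, no minimum level, 5 CPM added to both levels and a pseudocount of 1.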

Additional observations from a re-analysis of the deposited data

Results flagged for a closer look

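Effects of opposite sign under the same contrast are listed here. In each case there was 1 library per group and the difference between the effects was not tested. All values are log2 ratios with counting intervals. In monocyte/Mφ-like cells the ratio of 72 h to 24 h for Ms4a6b was -0.34 (-0.39 to -0.29) in WT, whereas the CCR2 KO value was 0.30 (0.15 to 0.44). For Ms4a6c the WT value was -0.63 (-0.66 to -0.59) and the CCR2 KO value 0.15 (0.05 to 0.24). The ratio of CCR2 KO to WT for Ms4a6d was -0.089 (-0.15 to -0.03) at 24 h and 0.13 (0.02 to 0.24) at 72 h. In type 2 dendritic cell-like cells Ms4a6c had a ratio of 72 h to 24 h of -0.44 (-0.61 to -0.27) in WT but 0.30 (0.14 to 0.45) in CCR2 KO, and a ratio of CCR2 KO to WT of -0.57 (-0.76 to -0.37) at 24 h and 0.17 (0.04 to 0.30) at 72 h. In the Cx3cr1 subset Ms4a7 had a ratio of 72 h to 24 h of 0.32 (0.09 to 0.56) in WT but -0.75 (-1.01 to -0.50) in CCR2 KO. The opposite signs in monocyte/Mφ-like cells were lost with other processing, as CCR2 KO over time became -0.092 (TMM) and -0.10 (equal weights) for Ms4a6c and -0.042 (thinned to 1000 UMIs) for Ms4a6b, and Ms4a6d at 72 h became -0.046 (TMM), -0.22 (equal weights) and -0.36 (thinned to 1000 UMIs).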

How the results depend on the processing

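No paired analysis was possible because each group had 1 library, and for the same reason no replicate could be left out. Of the single ratios, 90 stayed within their counting interval under an alternative, 50 moved by more and 10 changed sign. A change of sign was counted where the interval of the ratio excluded 0, and all 10 were in comparisons with the CCR2 KO 72 h library. Of the ratios whose interval covered 0, Ms4a7 between genotypes at 24 h ranged from -0.066 to 0.23 and Ms4a6c at 72 h from -0.34 to 0.092, so their signs were not fixed either. Ms4a6b between genotypes at 72 h, whose interval also covered 0, ranged from -0.46 to -0.053. With at most 5% mitochondrial UMIs (1033, 182, 591 and 50 monocyte/Mφ-like cells left) the CCR2 KO to WT ratio of Ms4a4c at 72 h became 0.33 and the 72 h to 24 h ratio of Ms4a7 in CCR2 KO -0.64. With every cell weighted equally, Ms4a6d at 72 h became -0.22 between genotypes, and in CCR2 KO over time Ms4a7 became -0.045 and Ms4a6c -0.10. With cells thinned to 1000 UMIs, Ms4a6d at 72 h became -0.36 and Ms4a6b in CCR2 KO over time -0.042. With TMM these values were -0.046 for Ms4a6d at 72 h, and -0.042 for Ms4a7 and -0.092 for Ms4a6c in CCR2 KO over time. TMM lowered every gene's ratio by 0.09, 0.17, 0.15 and 0.24 in the 4 comparisons, so these changes are relative to that shift. The number of members past 2-fold between genotypes at 24 h was 0 and became 1 with equal weights and with TMM. In CCR2 KO over time it was 0 and became 2 with equal weights, 1 without the top 5% of cells, 2 with thinning to 1000 UMIs and 2 with TMM. Without a minimum level the share of all genes past 2-fold went from 4.02% to 29.1% between genotypes at 24 h, from 7.54% to 32.4% at 72 h and from 12.9% to 21.1% over time in WT, since genes of few UMIs enter. The ratio of Ms4a7 stayed between -2.57 and -1.43 between genotypes at 72 h and between 1.72 and 1.92 over time in WT, and that of Ms4a4c over time in WT between -1.69 and -1.45. Depth limits the subsets most, above all those of CCR2 KO.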

Other observations

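Some cells that the markers placed outside the leukocyte classes or among plasma cells held Ms4a7 in WT 72 h. Of 8 plasma cell-like cells, 5 held 128 UMIs of Ms4a7, up to 60 in 1 cell, and these 5 held the monocyte/Mφ markers at 18382 CPM against 3742 CPM in the other 3. All 3 cells of WT 72 h with markers of non-leukocytes held Ms4a7, 39 UMIs in all, beside monocyte/Mφ markers at 13335 CPM. In the other 3 libraries no plasma cell-like or non-leukocyte-like cell held a UMI of Ms4a7. Of the 41 T cell-like cells of WT 72 h, 1 held 8 UMIs of Ms4a7.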
